A study of Mus musculus with 9 samples.

Results

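The RNA described here came from the milk fat of 5 lactating mice on a control diet, 1 library per dam, out of 9 libraries in the series. The members were chosen by their titles, which number them as control replicates 1 to 5, and they are called control 1 to control 5 below. The dams were primiparous females of the ICR stock, also called CD1, an outbred mouse. From 4 weeks of age they ate a purified diet with 10% of its energy from fat and 7% from sucrose, at 3.85 kcal per gram. Feeding began 4 weeks before mating, when females shared cages in pairs, and lasted through pregnancy and lactation. Which dams had shared a cage is not given in the sources used here. Milk was taken on day 10 after birth. The fat layer was spun off the milk, mixed with saline and spun once more so that trapped cells and debris were removed. Total RNA was extracted from it and made into stranded total RNA libraries. No diet comparison is made.

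Milk fat is secreted by the luminal epithelial cells of the mammary gland. A lipid droplet leaves the cell wrapped in its plasma membrane, and some cytoplasm is carried along inside the wrapping. The globule's RNA is for that reason used as a sample of the secreting cell. At this stage of lactation, the gland's secretory cells make caseins and whey proteins, synthesise fatty acids and lactose, and move calcium, phosphate and iron binding proteins into milk.

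Levels are given in FPKM, the fragments assigned to a gene per kilobase of transcript per 1000000 mapped fragments, as deposited. The tables have rows for genes above 1 FPKM, and a gene without a row is called unlisted. Unlisted does not mean absent, because Rpl13, Rps12 and Rps27 of the ribosome and Cox4i1 of the respiratory chain, which every cell uses, had no row in any of the 5 libraries. Control 1 to control 5 listed 8487, 7098, 8903, 8695 and 8746 genes, and the mean was 8386 ± 735 (SD, n = 5). Control 2 was the lowest by more than the range of the other 4. Together the libraries listed 10759 genes, and 6055 of them, or 56.3%, were listed in all 5. Libraries also differed in scale. Of these 6055 genes, 7.66% were above their own mean log2 level in control 2 and 39.7% in control 5. In control 1, 3 and 4 it was 71.1%, 79.2% and 77.9%. A low value in control 2 is thus common to most genes. The deposited confidence bounds gave a measure of precision. The median listed gene rested on about 32.8, 20.0, 33.4, 41.1 and 30.6 fragments in control 1 to control 5. The bounds lay a median of 54.4% to 64.0% from the value at 1 to 2 FPKM and 5.58% to 6.28% from it at 100 FPKM or more, so single values near the listing limit are coarse.

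Very short genes held most of the summed FPKM. Genes annotated as miRNA held 89.8%, 87.8%, 82.4%, 86.1% and 74.0% of all FPKM in control 1 to control 5, a mean of 84.1% ± 6.23 (SD, n = 5). Nearly all of this came from 3 predicted genes of 57 bases and 1 of 78 bases, AC122546.1. The transcripts of the 57-base genes are shown because their near identity bears on how their values can be read. Capitals mark base 11, counted from the 5′ end of the transcript, the only base at which they differ. Sequences and positions are those of GENCODE M21 on GRCm38. Gm24270 lies at chr9:56223715-56223771 on the minus strand, Gm24245 at chr4:139338304-139338360 on the plus strand and Gm24187 at chr13:9834469-9834525 on the minus strand.
Gm24270: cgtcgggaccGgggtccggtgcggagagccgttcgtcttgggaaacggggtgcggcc
Gm24245: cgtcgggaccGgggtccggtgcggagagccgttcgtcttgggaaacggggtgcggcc
Gm24187: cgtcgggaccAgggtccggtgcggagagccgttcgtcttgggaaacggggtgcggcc
The Gm24270 and Gm24245 transcripts were identical, and Gm24187 differed from them by G11A. Guanine and cytosine made up 73.7% of the bases of Gm24270 and Gm24245 and 71.9% of those of Gm24187. Whether the fragments assigned to these genes came from other RNAs was not tested.

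Gm24270 was listed at 2399910, 1294910, 1448750, 1517260 and 849550 FPKM in control 1 to control 5. Gm24245 was listed at 2399910, 1294910, 1172800, 1689020 and 891331 FPKM. The pair had equal values in control 1 and control 2, and fragments of either gene cannot be told from those of the other. Gm24187 reached 184609, 298826, 68988, 85883 and 83562 FPKM and was highest in control 2. The bounds of these genes were very wide: the lower bound was 0 in control 3 for both Gm24270 and Gm24245, and in control 5 for Gm24245. For Gm24187 it was 0 in all 5 libraries, so their order for this gene is not resolved. A gene shorter than the fragments sequenced has an effective length near 0, so its FPKM is not a measure of molecules in proportion to that of long genes. FPKM is also relative to all mapped fragments of a library, so a lower value is a smaller share and not a known amount of RNA. How many cells contributed, and how much RNA each gave, cannot be read from it. Of 60 genes annotated as miRNA, 5 were listed in all 5 libraries and 48 in 1 library alone, 35 of them in control 5. Of those 35 genes, 14 shared the single value 42.1 FPKM.

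Structural RNAs came next. Together the small RNAs other than annotated miRNAs held 3.79%, 7.57%, 9.43%, 5.86% and 16.6% of FPKM, most in control 5 and least in control 1. The structural RNA Rn7sk, given below, is not in this share, because its identifier was not found in GENCODE M21. Rn7s6, a copy of the 7SL RNA that forms the core of the signal recognition particle, had 106659, 159817, 197118, 115297 and 245926 FPKM. It was highest in control 5 and lowest in control 1. Y RNAs are short RNAs bound by the Ro protein, and the 2 that were listed lie close together on chromosome 6. Their GENCODE M21 transcripts are shown because they are the Y RNAs that the tables list. They stand at chr6:47781624-47781725 on the plus strand for Rny3, with 102 bases, and at chr6:47788069-47788180 on the minus strand for Rny1, with 112 bases. No capitals are used in them.
Rny3: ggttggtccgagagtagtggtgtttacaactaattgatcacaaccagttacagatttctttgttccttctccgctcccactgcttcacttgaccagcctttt
Rny1: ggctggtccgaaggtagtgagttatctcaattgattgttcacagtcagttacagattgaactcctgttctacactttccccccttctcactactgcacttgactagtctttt
Rny3 had 72693, 30279, 59602, 53699 and 20470 FPKM, highest in control 1 and lowest in control 5, the reverse of the order of these libraries for Rn7s6. Rny1 had 3520, 3821, 6690 and 2263 FPKM in control 1, 2, 4 and 5 and was unlisted in control 3.

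Rn7sk, which holds the elongation factor P-TEFb inactive, had 4217, 8922, 11395, 7899 and 26309 FPKM. Its highest value was in control 5 and its lowest in control 1. Rmrp, the RNA of the mitochondrial RNA processing ribonuclease, had 1405, 2805, 3624, 2082 and 8563 FPKM, with the same extremes. Rpph1, the RNA of ribonuclease P, had 3284, 3303, 3465, 4529 and 6673 FPKM, and the vault RNA Vaultrc5 had 8390, 7923, 5826, 11608 and 5021 FPKM. Vaultrc5 was lowest in the library where Rpph1 was highest. The small nucleolar RNA Snord22, which lies in an intron, had 263, 2814, 2327, 885 and 5478 FPKM, a 20.8-fold range, with a lower bound of 0 in control 1. Of 26 small structural RNAs in the list, 22 were listed in some library and 14 in all 5, and Rn7s1, Rn7s2, Rnu73b and Rprl2 were unlisted throughout. Some short genes stood very high in 1 library and had no row in the other 4: the mitochondrial transfer RNA mt-Ts1 in control 1 with 33589 FPKM, AC069308.1 in control 4 with 43479 FPKM and Snord104 in control 5 with 43905 FPKM. The lower bound of each of these 3 values was 0, so they cannot be told from 0.

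When loci under 300 bases were left out, protein-coding genes of the nucleus were the leading class. They held 58.9%, 47.1%, 52.0%, 59.5% and 43.3% of the remaining FPKM, a mean of 52.2% ± 7.16 (SD, n = 5). Transcripts of the mitochondrial genome held 18.8%, 27.2%, 23.4%, 19.4% and 28.0%, highest in control 5 and control 2. Pseudogenes held 16.8%, 9.93%, 14.7%, 13.6% and 8.68%, lowest in those same libraries. Among all listed genes the means were 3.65% ± 1.00 for nuclear protein-coding genes, 1.83% ± 0.569 for the mitochondrial genome and 1.22% ± 0.392 for pseudogenes (SD, n = 5 each). In what follows, a share is a share of nuclear protein-coding FPKM unless said otherwise.

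**Figure D1:**
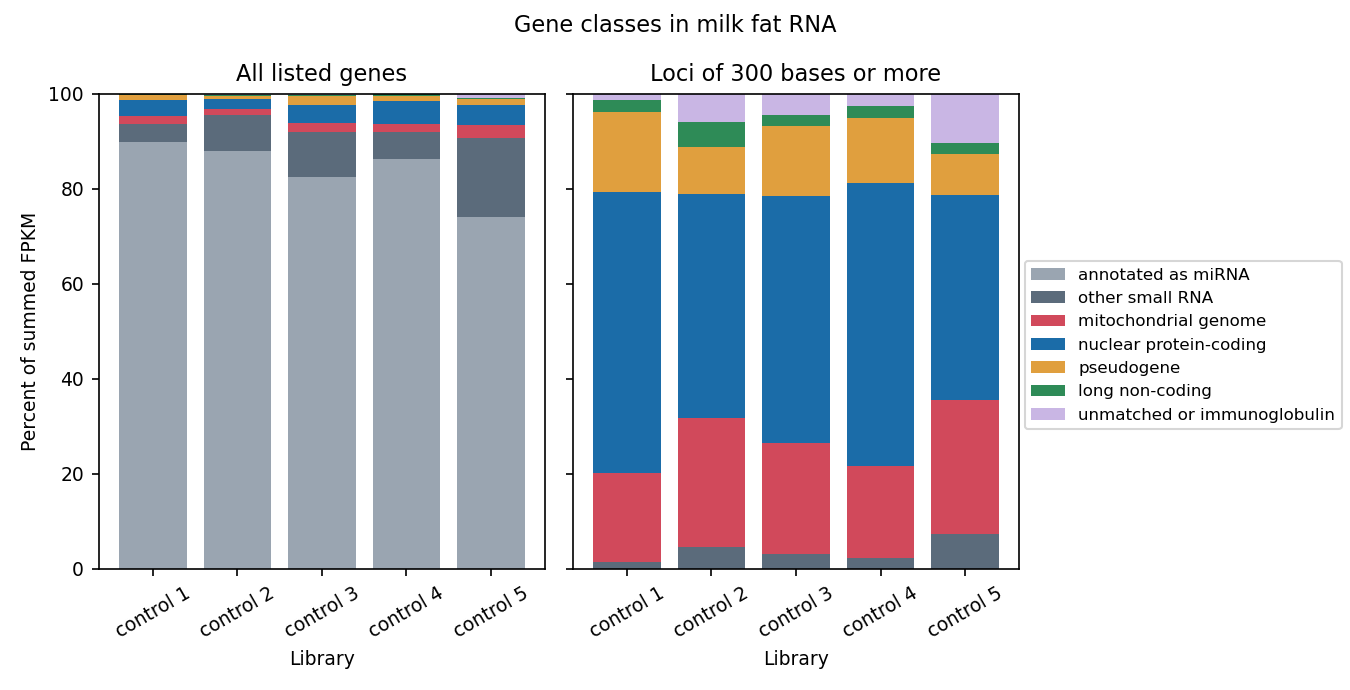
Percent of summed FPKM (vertical axis) in each gene class, 1 stacked bar for each control diet library. On the left, over all listed genes, genes annotated as miRNA fill 74.0% to 89.8% of every bar, and on the right, without loci under 300 bases, nuclear protein-coding genes fill 43.3% to 59.5%.

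The protein-coding part was dominated by very few genes. Between 10 and 26 genes were enough to reach 50% of protein-coding FPKM: 16, 13, 26, 12 and 10 genes in control 1 to control 5. To reach 90%, 1618, 2284, 2461, 1707 and 2665 genes were needed. The 10 most abundant genes by mean held 45.4% ± 3.14 of it (SD, n = 5). Of 8928 protein-coding genes listed in any library, 15 had a mean of 1000 FPKM or more and 92 a mean of 100 to 1000 FPKM. A further 836 lay between 10 and 30 FPKM, 2686 between 3 and 10 FPKM and 2912 between 1 and 3 FPKM. Control 5 reached 50% with the fewest genes and needed the most genes to reach 90%.

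**Figure D2:**
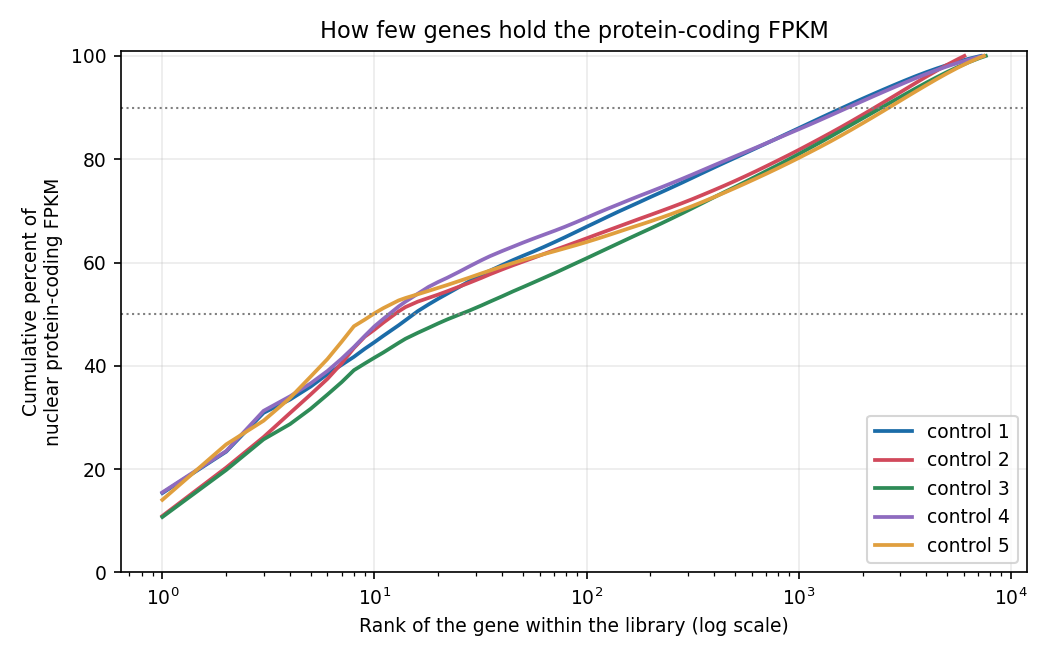
Cumulative percent of nuclear protein-coding FPKM (vertical axis) against the rank of a gene within its library (log axis), 1 line for each control diet library, with dotted lines at 50% and 90%. The lines cross 50% at 10 to 26 genes and 90% at 1618 to 2665 genes.

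The gene with the highest protein-coding mean, Gm10800, is a predicted gene. It had 28564, 4127, 7827, 29023 and 5041 FPKM, high in control 1 and control 4 and at least 3 times lower in each of the others. It is 1 of 12 predicted coding genes that lie at 3 positions known for copies of the major satellite repeat of mouse centromeres: chr2:98662237-98667301, chr9:3000922-3038316 and chr14:19415857-19418930. These 12 genes held 22.6%, 8.69%, 8.88%, 23.0% and 6.89% of protein-coding FPKM, a mean of 14.03% ± 8.08 (SD, n = 5). Their fragments may belong to any satellite copy, so their values are uncertain as gene levels. Lars2, the leucyl-tRNA synthetase of mitochondria, was also among the 10 most abundant coding genes, with 1562, 3258, 3173, 4224 and 3746 FPKM and its lowest value in control 1. Without the satellite position genes the 10 most abundant genes held 37.0%, 43.9%, 40.1%, 41.7% and 49.5%.

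Milk protein genes made up the core of the protein-coding RNA. Of the 24 genes in the list, 23 were listed in all 5 libraries, and Tnfrsf11b, the decoy receptor osteoprotegerin, was unlisted in all. Together they held 27.5%, 34.5%, 33.6%, 29.1% and 41.5% of protein-coding FPKM, a mean of 33.2% ± 5.48 (SD, n = 5). Control 5 had the highest share and control 1 the lowest. The satellite position genes are in this denominator, at 22.6% and 23.0% of it in control 1 and control 4. In control 2, 3 and 5 they held 8.69%, 8.88% and 6.89%. Shares of other coding genes, the caseins below included, are thus lowered more in control 1 and control 4. Without the satellite position genes the milk protein mean was 38.5%, and the order of the libraries was not tested. Wap, the whey acidic protein, was the most abundant gene with a known product, at 14922, 7636, 14166, 14572 and 15465 FPKM. As deposited, control 2 was far lower than the other 4 libraries, which lay close together. Divided by the size factors described below, Wap was at 11453, 12759, 12182, 11096.5 and 17608. Control 2 was then not the lowest library, and control 5 was the highest. The mean of Wap was 13352 ± 3231 FPKM (SD, n = 5).

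The 5 caseins, which form the micelles that carry calcium phosphate, lie in 1 cluster at chr5:87666208-87932665, a span of 266 kb. They held 14.1%, 18.4%, 18.1%, 15.2% and 23.5% of protein-coding FPKM, a mean of 17.9% ± 3.65 (SD, n = 5). Csn1s2b, an alpha-S2-like casein, had 13969, 6552, 12029, 14992 and 11822 FPKM. Csn1s2a, the other alpha-S2-like casein, had 4661, 2075, 3906, 4486 and 4849 FPKM. Csn1s1, the alpha-S1 casein, had 2894, 2108, 3642, 4051 and 4541 FPKM. Control 2 was the lowest library for each of these 3 genes, and Csn1s1 was highest in control 5 while Csn1s2b was highest in control 4. Csn2, the beta casein, had 2902, 1534, 3061, 3478 and 3308 FPKM. Csn3, the kappa casein that coats the micelle surface, had 1804, 581, 1297, 1497 and 1342 FPKM. Both were again lowest in control 2. These levels are as deposited, and most genes were low in control 2 on that scale. After size factors, only Csn3 of the 5 was lowest there.

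The order of the levels was steady at some steps and not at others. Wap exceeded Csn1s2b in 4 of 5 libraries, the exception being control 4. Csn1s2b exceeded Csn1s2a in 5 of 5, and Csn3 exceeded Lalba in 5 of 5. Csn1s2a exceeded Csn1s1 in all but control 2, and Csn1s1 exceeded Csn2 in all but control 1, where they were nearly equal. From Csn2 to Csn3 the neighbours Wfdc18, Glycam1 and Trf changed places between libraries. Ratios within a library varied far less than the levels for some pairs. Wap over Csn2 averaged 4.72 ± 0.366 and ran from 4.19 to 5.14 (SD, n = 5). Csn1s2b over Csn1s2a averaged 3.003 ± 0.340 and ran from 2.44 to 3.34 (SD, n = 5). Lalba over Wap, in contrast, ran from 0.0121 in control 5 to 0.0604 in control 1.

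**Figure D3:**
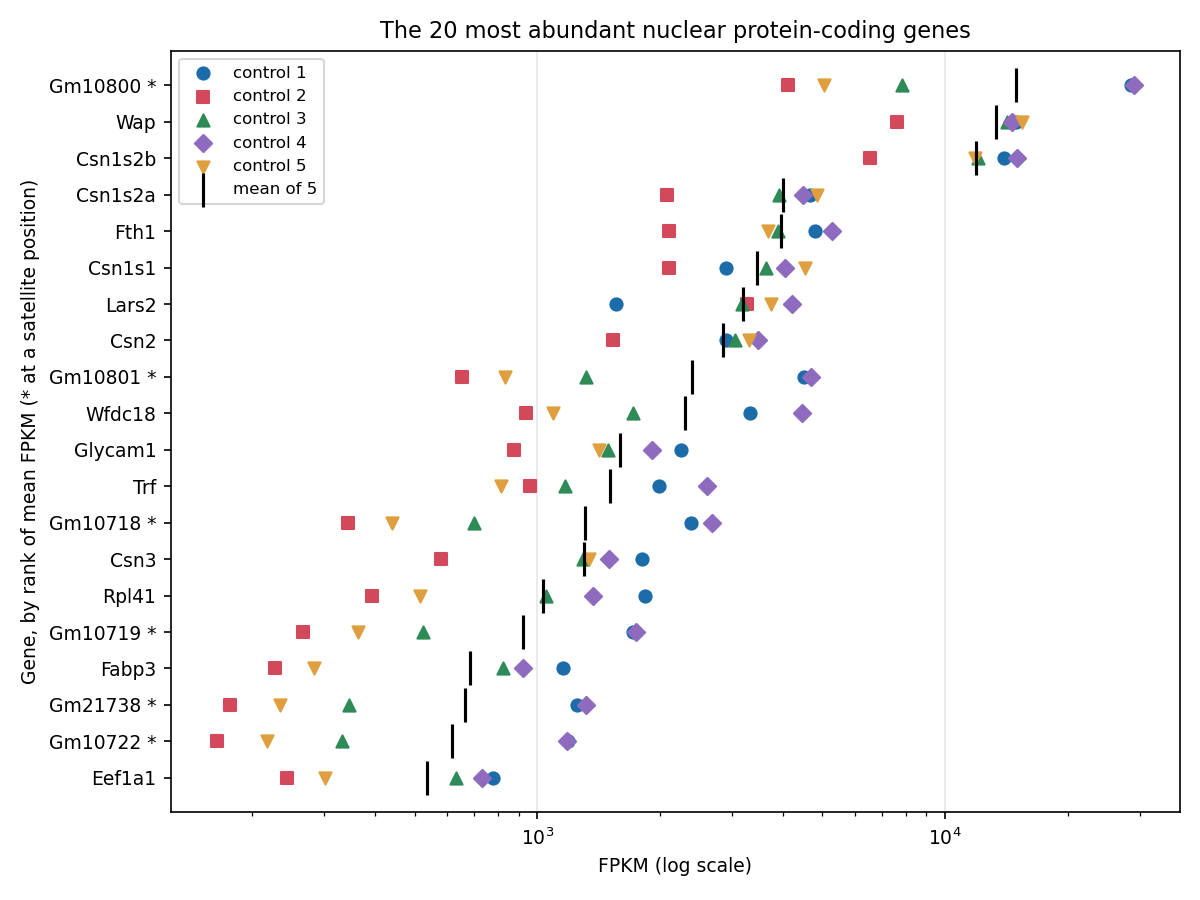
FPKM (horizontal axis, log scale) of the 20 most abundant nuclear protein-coding genes, from the highest mean at the top, with 1 symbol for each control diet library and a black bar at the mean. Wap lies between 14166 and 15465 FPKM in 4 libraries and at 7636 FPKM in control 2, while Gm10800 and the other starred genes at satellite positions are far higher in control 1 and control 4.

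The promoters of the alpha-S1 and beta casein genes are shown because these neighbours on chromosome 5, read from opposite strands, were both among the 8 most abundant coding genes. The factor STAT5, which acts downstream of the prolactin receptor, binds the motif TTCNNNGAA, which is its own reverse complement, so 1 search covers both strands. Capitals mark the match. The sequences run from 250 bases before to 50 bases after the start of the gene in RefSeq on GRCm38.p6, at chr5:87665958-87666257 on the plus strand for Csn1s1 and chr5:87699376-87699675 on the minus strand for Csn2.
Csn1s1: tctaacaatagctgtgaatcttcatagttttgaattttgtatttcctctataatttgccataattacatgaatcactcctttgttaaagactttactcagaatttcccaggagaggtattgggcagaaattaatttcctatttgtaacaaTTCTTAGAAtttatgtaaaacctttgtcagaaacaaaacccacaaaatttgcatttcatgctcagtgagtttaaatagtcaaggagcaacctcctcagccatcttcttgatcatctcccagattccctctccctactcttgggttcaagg
Csn2: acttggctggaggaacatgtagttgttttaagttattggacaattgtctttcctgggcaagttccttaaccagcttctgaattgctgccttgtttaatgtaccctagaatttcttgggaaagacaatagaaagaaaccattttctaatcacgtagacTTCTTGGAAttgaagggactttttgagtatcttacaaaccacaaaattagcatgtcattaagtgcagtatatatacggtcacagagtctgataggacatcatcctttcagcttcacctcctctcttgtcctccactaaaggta
The match begins 100 bases before the start in Csn1s1 and 93 bases before it in Csn2. In Glycam1 a match begins 145 bases before the start, and in Csn1s2a 21 bases after it. Of 23 listed milk protein genes, 18 had a promoter in the table, and 5 of these held the motif: Csn1s1, Csn2, Csn1s2a, Glycam1 and Pigr. Of the 5 caseins, 3 had a promoter there, and Csn1s2b and Csn3 had none. The motif was in 2726 of all 32851 promoters of that length, or 8.30%. Counted by gene, it was in 2582 of 27025 genes with a promoter, or 9.55%, and in 336 of 4117 such genes listed in all 5 libraries, or 8.16%. A match describes the letters of this window and is not a measured binding site.

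Other secreted proteins followed the caseins. Wfdc18, a small relative of Wap, had 3328, 936, 1716, 4459 and 1095 FPKM, high in control 1 and control 4. Glycam1, a mucin-like glycoprotein of milk, had 2256, 879, 1492, 1916 and 1416 FPKM, and Trf, the iron carrier transferrin, had 1988, 958, 1172, 2609 and 816 FPKM. Glycam1 was lowest in control 2 and Trf in control 5. Lalba, alpha-lactalbumin, which makes the galactosyltransferase B4galt1 form lactose, had 902, 186, 571, 719 and 187 FPKM. It was lowest in control 2 and control 5, and its highest value was 4.84 times its lowest. Spp1, osteopontin, had 401, 56.2, 290, 156 and 62.8 FPKM, the widest relative spread of any gene in the milk protein list above 100 FPKM. Muc1, a mucin of the apical membrane, had 15.4, 6.65, 12.3, 13.8 and 9.49 FPKM. Scaled to the library, as described below, its SD on the log2 scale was 0.07, against 0.91 for Spp1 and 0.15 for Csn1s2b.

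Proteins of defence and the acute phase were prominent. Of 23 genes listed, 18 were seen in some library and 14 in all 5, and Orm3, Hp, Lyz1, Camp and Reg3g were unlisted. Saa2, a serum amyloid A, had 898, 173, 260, 746 and 189 FPKM, and its neighbour in function Saa1 had 237, 65.9, 73.4, 224 and 79.998 FPKM. Both were high in control 1 and control 4, and near-identical sequence may have shifted fragments between them. Lcn2, the siderophore-binding lipocalin, had 440, 200, 363, 681 and 268 FPKM. Ltf, the iron-binding lactoferrin, had 196, 162, 209, 289 and 232 FPKM. As deposited, Lcn2 and Ltf were both highest in control 4 and lowest in control 2. After size factors, Ltf was highest in control 2, at 270, and lowest in control 1, at 150. Lcn2 stayed highest in control 4, at 518, and was lowest in control 5, at 306. The group held 0.962% ± 0.156 of protein-coding FPKM (SD, n = 5).

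Of the iron and metal binding genes, Fth1 was in the range of the caseins and the others were lower. Fth1, the ferritin heavy chain, had 4785, 2105, 3898, 5269 and 3683 FPKM and had rank 5 among coding genes. Its light chain partner Ftl1 had 347, 219, 314, 507 and 319 FPKM. Fth1 over Ftl1 averaged 11.5 ± 1.64 (SD, n = 5). The metallothioneins, which bind zinc and copper, varied more: Mt1 had 703, 115, 288, 707 and 358 FPKM, and Mt2 had 270, 36.0, 105, 353 and 187 FPKM. Both were high in control 1 and control 4 and lowest in control 2. Slc20a1, a phosphate transporter, had 14.6, 35.4, 37.5, 22.1 and 78.3 FPKM, with its highest value in control 5 and its lowest in control 1. The calcium pumps of the Golgi, Atp2c1 and Atp2c2, were lower, at 3.10 to 10.9 FPKM and 3.15 to 10.4 FPKM. Of 19 genes for mineral and ion transport, 15 were listed in all 5 libraries, and Slc39a4 and Atp1b1 were unlisted. The group held 3.71% ± 0.343 of protein-coding FPKM (SD, n = 5), most of it Fth1.

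Genes for the fat globule were led by proteins of lipid transport and secretion. Fabp3, which carries fatty acids in the cytosol, had 1158, 228, 823, 922 and 283 FPKM. Plin2, which coats the lipid droplet, had 398, 159, 357, 433 and 182 FPKM. Xdh, xanthine oxidoreductase, which is needed to enclose the droplet in membrane, had 195, 56.0, 177, 164 and 56.5 FPKM. All 3 genes were lower in control 2 and control 5 than in the other libraries. Mfge8, a glycoprotein on the globule surface, had 159, 73.4, 127, 170 and 70.1 FPKM, and Cidea, which helps droplets fuse, had 135, 53.1, 108, 127 and 62.3 FPKM. Of 32 genes in the group, 19 were listed in all 5 libraries. The 9 unlisted ones included Plin4, Plin5, Cideb and Cidec, relatives of Plin2 and Cidea, and Gpam, Mogat1 and Mogat2 of glyceride synthesis. The group held 1.08% ± 0.248 of protein-coding FPKM (SD, n = 5).

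Fatty acid synthesis was represented from the supply of its precursors to chain release. Of 21 genes, 19 were listed in all 5 libraries and 1, Mlxipl, which encodes the carbohydrate response factor ChREBP, was unlisted. The group held 1.27% ± 0.357 of protein-coding FPKM (SD, n = 5). Thrsp, the Spot 14 protein that promotes lipogenesis, led with 727, 224, 637, 727 and 176 FPKM. Olah, the thioesterase that releases medium-chain fatty acids, had 424, 86.0, 263, 367 and 102 FPKM. Both were lower in control 2 and control 5 than elsewhere. Acly, which makes acetyl-CoA from citrate, had 296, 82.9, 332, 304 and 95.4 FPKM, and Fasn, the synthase itself, had 238, 125, 261, 248.7 and 103 FPKM. Acaca, which makes malonyl-CoA, had 181, 217, 128, 177 and 63.2 FPKM, and Scd1, the stearoyl-CoA desaturase, had 124, 183, 111, 143 and 79.98 FPKM. Unlike the other genes of the group named here, Acaca and Scd1 were highest in control 2.

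Cholesterol synthesis was far lower. Of 23 genes, 14 were listed in all 5 libraries, Mvd was unlisted, and the group held 0.0691% ± 0.00923 of protein-coding FPKM (SD, n = 5). Pmvk, phosphomevalonate kinase, had its highest mean, with 31.1, 5.15, 17.3, 26.0 and 7.01 FPKM. Control 1 was the highest library for Pmvk and control 2 the lowest. Acat2, which makes acetoacetyl-CoA, had 27.6, 5.54, 18.5, 22.7 and 8.47 FPKM and was above Pmvk in control 2, 3 and 5.

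For lactose, the level of Lalba stood well above the rest of the route. B4galt1, the catalytic partner of alpha-lactalbumin, had 8.94, 9.52, 11.3, 8.05 and 9.81 FPKM, nearly level across libraries before scaling. Ugp2, which makes UDP-glucose, had 45.4, 10.7, 32.2, 38.8 and 13.1 FPKM. It was low in control 2 and control 5, as Lalba was. Slc2a1, the glucose transporter GLUT1, had 2.14, 3.37, 3.18, 2.73 and 5.44 FPKM, and Slc35a2, which carries UDP-galactose into the Golgi, was at 1.11 to 1.46 FPKM in 4 libraries and unlisted in control 1. Of 12 genes, 10 were listed in all 5 libraries, and Slc2a8 was unlisted.

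Regulators of secretory differentiation were listed at moderate levels. Elf5, a transcription factor of the alveolar cell, had 250, 69.8, 203, 270 and 65.3 FPKM, lowest in control 5 and control 2. Stat5a had 11.5, 3.64, 9.24, 9.003 and 4.21 FPKM, and its relative Stat5b had 1.51 to 5.55 FPKM. The prolactin receptor Prlr was listed at 1.39, 1.54 and 1.43 FPKM in control 1, 3 and 4 and unlisted in control 2 and control 5. Of 18 genes of the prolactin axis, 13 were listed in all 5 libraries, and Socs1, Pgr and Tnfsf11 were unlisted. Pgr, the progesterone receptor, and Tnfsf11, the ligand RANKL, belong to the hormone-sensing cells of the gland.

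The machinery of translation and respiration was nearly complete. All 35 translation factors were listed in all 5 libraries, led by Eef1a1, which brings aminoacyl-tRNA to the ribosome, at 781, 243, 632, 730 and 302 FPKM. Of 85 cytosolic ribosomal protein genes, 79 were listed and 68 in all 5. They held 4.00%, 2.98%, 3.94%, 3.32% and 2.19% of protein-coding FPKM, highest in control 1 and lowest in control 5. Rpl41, which encodes a very short protein, led with 1835, 393, 1052, 1367 and 515 FPKM. Rps19 departed from the other ribosomal proteins named here, with 26.5, 103, 155, 253 and 124 FPKM and its lowest value in control 1. The pseudogene Rps19-ps6 had 316, 41.0, 177, 102 and 47.8 FPKM, with its highest value in control 1. How fragments were split between Rps19 and this copy was not tested.

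Processed copies complicate this group. Of ribosomal protein pseudogenes, 130 were listed, 98 in all 5 libraries, with summed levels of 13694, 3319, 9568, 10932 and 4165 FPKM. The 79 listed ribosomal protein genes summed to 7441, 2083, 5206, 6213 and 2410 FPKM, less than the pseudogenes in every library. Among 119 pairs of a named pseudogene and its parent gene with both listed in all 5 libraries, the pseudogene was above the parent in all 5 for 65 pairs and below it in all 5 for 43. Fabp3-ps1 had 4751, 1000, 3406, 4032 and 1188 FPKM, about 4 times the level of Fabp3 in each library. Rpl38-ps2 had 1131, 280.5, 860, 852 and 303 FPKM, against 27.4, 8.82, 25.6, 22.0 and 4.71 FPKM for Rpl38. A pseudogene without introns and its parent share most of their sequence, so the split between them is uncertain, and the parent's level may be understated.

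Of 88 nuclear genes of the respiratory chain, 77 were listed in all 5 libraries, and they held 3.73%, 2.03%, 3.37%, 2.88% and 1.63% of protein-coding FPKM. Atp5b, the catalytic subunit of ATP synthase, led with 437, 76.6, 310, 353 and 113 FPKM. Cox8a of cytochrome c oxidase had 429, 87.5, 253, 300 and 83.3 FPKM. Both genes were highest in control 1 and low in control 2 and control 5. The mitochondrial genome's own transcripts did not have this order. The ribosomal RNA mt-Rnr2 had 35753, 26505, 38779, 39318 and 46476 FPKM, and mt-Rnr1 had 13112, 9816, 13227, 15605 and 15516 FPKM. The oxidase subunit mt-Co1 had 3005, 1227, 2291, 1753 and 2533 FPKM. All 3 were lowest in control 2, but mt-Rnr2 was highest in control 5 and mt-Co1 in control 1. Apart from mt-Ts1, no mitochondrial transfer RNA was listed.

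The lists of cell type markers set the milk fat RNA beside the cells of the gland. All 18 markers of the secretory luminal epithelium were listed, 16 of them in all 5 libraries, with summed levels of 19562, 9831, 18659, 19805 and 19856 FPKM. Wap alone was 14922, 7636, 14166, 14572 and 15465 FPKM of these sums, and Csn2, Lalba and Ltf, given above, are also in the list. The sums therefore do not measure the proportion of a cell type. The luminal keratin Krt18 had 105, 89.0, 145, 139 and 289 FPKM, and its partner Krt8 had 37.6, 19.7, 41.5, 46.7 and 43.2 FPKM. Krt18 was highest in control 5. Markers of other cells were lower, and many were unlisted. Of 12 myoepithelial or basal markers, 6 were listed, with summed levels of 11.8, 13.8, 7.47, 10.9 and 12.5 FPKM. They were led by the smooth muscle actin Acta2 with 4.44, 6.47, 2.94, 4.54 and 5.51 FPKM. The basal keratin Krt14 had 2.50, 1.75, 1.28, 1.53 and 1.03 FPKM, and Krt5, Myh11, Trp63 and Oxtr were unlisted. Myoepithelial markers therefore came to between 0.00566% and 0.0197% of protein-coding FPKM.

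Of 10 hormone-sensing luminal markers, 3 were listed: Ly6a, the oestrogen receptor Esr1 at 1.09 to 1.81 FPKM in 4 libraries, and Prlr. Ly6a, a surface protein also called Sca-1, had 48.2, 15.1, 25.9, 49.2 and 43.5 FPKM and made up nearly all of the list. The list summed to 51.4, 15.1, 29.1, 52.1 and 44.6 FPKM, lowest in control 2, and the defining receptor Pgr was unlisted. Of 16 macrophage markers, 11 were listed somewhere but only Cd14 in all 5, with 16.8, 10.0, 12.6, 28.7 and 23.1 FPKM. Summed over the list, macrophage markers came to 39.7, 11.1, 22.8, 47.3 and 28.6 FPKM, and the defining receptors Adgre1, Csf1r and Mrc1 were unlisted. Much of each sum was Cd14, and which cells its RNA came from was not tested. The class II invariant chain Cd74 had 6.77, 1.47, 5.62 and 1.17 FPKM in control 1, 3, 4 and 5 and was unlisted in control 2. Of 12 neutrophil markers, S100a8 was listed in 5 libraries at 1.85 to 14.3 FPKM and S100a9 in 4, and they summed to 4.44 to 14.3 FPKM. Of 12 B and plasma cell markers, 2 were listed, Xbp1 at 21.6 to 56.3 FPKM and Sdc1, which secretory epithelium also expresses, and Cd79a, Jchain and Igkc were not. Adipocyte markers were limited to Fabp4 at 2.49 FPKM and endothelial ones to Pecam1 at 1.10 FPKM, both in control 5 alone. None of the 10 fibroblast, 12 T and NK cell, 8 erythroid and 10 liver markers was listed in any library.

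The libraries ranked genes alike, but not equally so for every pair. Over the 10 pairs of libraries and the 6055 genes listed in all 5, Spearman's rho across genes had a median of 0.838. It was highest between control 1 and control 4, at 0.946, and lowest between control 1 and control 5, at 0.640. Genes are not independent replicates, and rho here is a description of these tables. The SD of log2 FPKM between the 5 libraries had a median of 0.65 over these genes. After the libraries were divided by their median-of-ratios size factors, 1.30, 0.598, 1.16, 1.31 and 0.878, it was 0.45. For 75.2% of the genes, the lowest and highest library were further apart than their deposited bounds allow, since the bounds did not overlap, and after scaling this held for 58.9%. Bounds describe counting and assignment within a library, and with 1 library per dam, differences between dams, milk collections and library preparations cannot be told apart.

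Spread differed between classes and, before scaling, between levels. Small RNAs other than annotated miRNAs had a median SD of 0.94 as deposited and 1.21 after scaling, the highest of the classes in both. Protein-coding genes at a mean of 1 to 3 FPKM had 0.49 as deposited, and those at 100 to 1000 FPKM had 0.95. After scaling these were 0.47 and 0.57. Only genes listed in all 5 libraries enter, so values of 1 FPKM or less are cut off. This limits the SD of genes near that level. Of 2912 coding genes at a mean of 1 to 3 FPKM, 1394 entered. How much of the difference between levels comes from this limit was not tested. The 15 coding genes at 1000 FPKM or more had 0.56 and 0.44. After scaling, control 5 was the highest of the 5 libraries for 32.9% of genes and the lowest for 30.5%, and control 1 for 29.7% and 28.5%. Control 3 was the highest for 7.46% and the lowest for 10.7%.

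Exon length moved with these deviations. Each gene's scaled log2 level was taken as a deviation from its own mean over the 5 libraries. In 196 coding genes with under 1000 bases of annotated exon, the median deviation was 0.63, -0.34, 0.20, 0.20 and -0.64 in control 1 to control 5. In 945 genes with 8000 bases or more it was -0.43, 0.29, -0.02, -0.22 and 0.48. The sign turned with length in every library, and control 3 deviated least. The part that length or RNA integrity plays in the results on gene groups was not tested, and the results on lists of coding genes are given also relative to coding genes of like length.

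**Figure D4:**
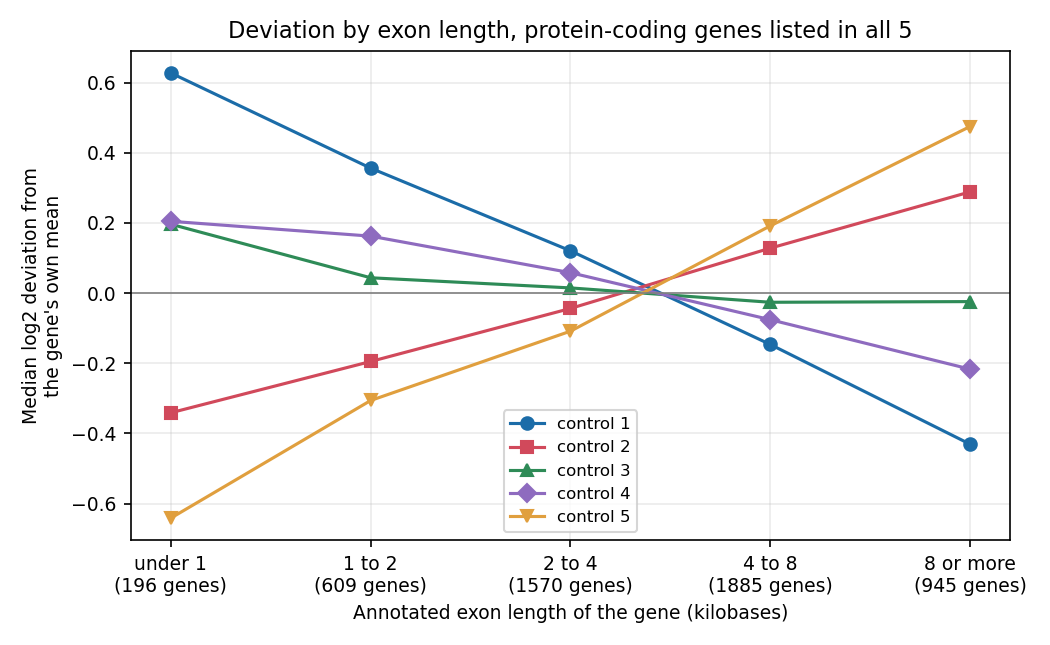
Median log2 deviation of protein-coding genes from their own mean over the 5 libraries after size factors (vertical axis), in 5 bins of annotated exon length in kilobases (horizontal axis), 1 line for each control diet library. Control 1 runs from 0.63 for the shortest genes to -0.43 for the longest, and control 5 from -0.64 to 0.48.

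Several gene groups differed between libraries, with control 1 and control 5 at opposite ends. On the deposited scale the median deviation of all 6055 genes was 0.38, -0.74, 0.22, 0.39 and -0.19 in control 1 to control 5, and size factors bring it to 0.01 in each. For the 77 respiratory chain genes the median deviation was 0.68, -0.46, 0.18, 0.33 and -0.67 in control 1 to control 5. All 77 were above their own mean in control 1 and none in control 5, where 50.9% and 50.8% of all genes were. The background in control 2, 3 and 4 was 51.3%, 51.7% and 51.2%. Relative to coding genes of like length the medians were 0.35, -0.31, 0.13, 0.21 and -0.43. The 68 ribosomal protein genes had 0.47, -0.25, 0.11, 0.20 and -0.53, and 0.14, -0.10, 0.07, 0.11 and -0.27 relative to like length. In control 1, 65 of the 68 were above their own mean, and in control 5, 3 of 68. The signs for both groups were the same under all 4 scalings tried, the deposited scale included. Proteasome subunits, which degrade tagged proteins, had the same signs but were lowest in control 2, at 0.33, -0.29, 0.06, 0.17 and -0.23 over 32 genes. Relative to like length they were at 0.12, -0.23, 0.06, 0.11 and -0.02, so control 5 was then near 0.

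Immediate early genes, transcription factors and feedback regulators induced within minutes of a stimulus, ran the other way. Their 15 members listed throughout had medians of -1.14, 0.58, -0.02, -0.45 and 1.08, and -1.26, 0.52, -0.05, -0.37 and 1.11 relative to coding genes of like length. In control 2 and control 5 all 15 were above their own mean, where 51.3% and 50.8% of all genes were, and in control 1 and control 4 none was. On the deposited scale the medians were -0.77, -0.17, 0.19, -0.07 and 0.87, where all genes are shifted as given above. Under the other 2 scalings control 2 stayed positive, at 0.62 and 0.59, and control 3, near 0, turned positive, at 0.06 and 0.16. Atf3, a stress-induced factor, had 6.26, 9.83, 13.1, 7.14 and 24.4 FPKM. Cyr61, a secreted matrix protein, had 2.45, 10.5, 16.1, 4.28 and 19.9 FPKM, and Klf6 had 5.47, 11.2, 16.1, 12.0 and 26.7 FPKM. All 3 were lowest in control 1, and Atf3 and Klf6 were highest in control 5 by more than 1.5 times, which Cyr61 was not. Fos itself had 16.4, 13.6, 10.6, 16.8 and 13.3 FPKM, with little spread before scaling, and Egr2, Egr3, Klf2 and Nr4a1 were unlisted.

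Chaperones were divided within their lists. Hspa5, the chaperone BiP of the endoplasmic reticulum, had 13.5, 47.2, 84.2, 18.4 and 131 FPKM. Hsp90b1, its partner there, had 5.65, 20.99, 47.0, 10.2 and 60.5 FPKM. The inducible cytosolic chaperone Hspa1b had 14.1, 31.3, 65.6, 19.8 and 95.7 FPKM, and Hspa1a, a near-identical copy, had 9.86, 23.0, 56.0, 15.1 and 77.7 FPKM. These 4 genes were lowest in control 1, next lowest in control 4 and highest in control 5. The constitutive Hspa8 had 51.2, 28.5, 61.3, 65.3 and 52.6 FPKM, and Ssr4 of the translocon complex had 57.8, 22.2, 36.9, 58.7 and 31.8 FPKM, which did not have that order. Over 37 genes of ER entry and folding the medians were -0.31, 0.33, 0.14, -0.37 and 0.38, and over 19 heat shock genes -0.35, 0.03, 0.21, -0.24 and 0.66. Relative to like length these were -0.49, 0.23, 0.17, -0.30 and 0.28 for the ER genes, and -0.18, -0.08, 0.20, -0.21 and 0.41 for the heat shock genes, whose sign in control 2 turned. On the deposited scale, where all genes are shifted, the signs in control 1, control 2 and control 4 were the opposite for both lists. Under the other 2 scalings they stayed as after size factors.

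The 10 nuclear long RNAs listed throughout had median deviations of -0.27, -0.06, 0.19, -0.10 and 0.39, with 4, 5, 7, 5 and 7 of them above their own mean. Their median SD after scaling, 0.47, was close to the 0.45 of all genes. Single members varied far more. Malat1, a long RNA of nuclear speckles, had 87.7, 811, 1041, 156 and 1840 FPKM, a 20.99-fold range. Neat1, which builds paraspeckles, had 6.20, 49.8, 37.2, 11.6 and 88.6 FPKM. Xist, the RNA that coats the inactive X chromosome, had 13.3, 32.2, 44.2, 18.9 and 94.5 FPKM. All 3 were lowest in control 1, next lowest in control 4 and highest in control 5, as Hspa5 and the small RNA Rmrp were. Gas5, a spliced host RNA of small nucleolar RNAs, had 27.1, 3.21, 15.4, 12.0 and 3.98 FPKM, highest in control 1. The 14 small structural RNAs listed throughout had median deviations of -1.19, 0.77, 0.09, -0.76 and 1.30, with the same signs on the deposited scale. After size factors 14 of 14 were above their own mean in control 2, where 51.3% of all genes were. On the deposited scale the median in control 2 was only 0.02. There 8 of 14 were above their own mean, where 7.66% of all genes were. Mitochondrial genome transcripts were at 0.02, -0.04, -0.13, -0.58 and 0.60. All 15 were above their own mean in control 5 and none in control 4, where 50.8% and 51.2% of all genes were. On the deposited scale control 1 was at 0.39, control 2 at -0.80 and control 3 at 0.07, while control 4 and control 5 kept their signs. Milk protein genes stayed near 0, at 0.11, -0.04, -0.12, 0.03 and -0.06 over 23 genes after size factors, and at 0.04, 0.01, -0.11, 0.01 and 0.05 relative to like length, with signs that varied with the scaling.

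**Figure D5:**
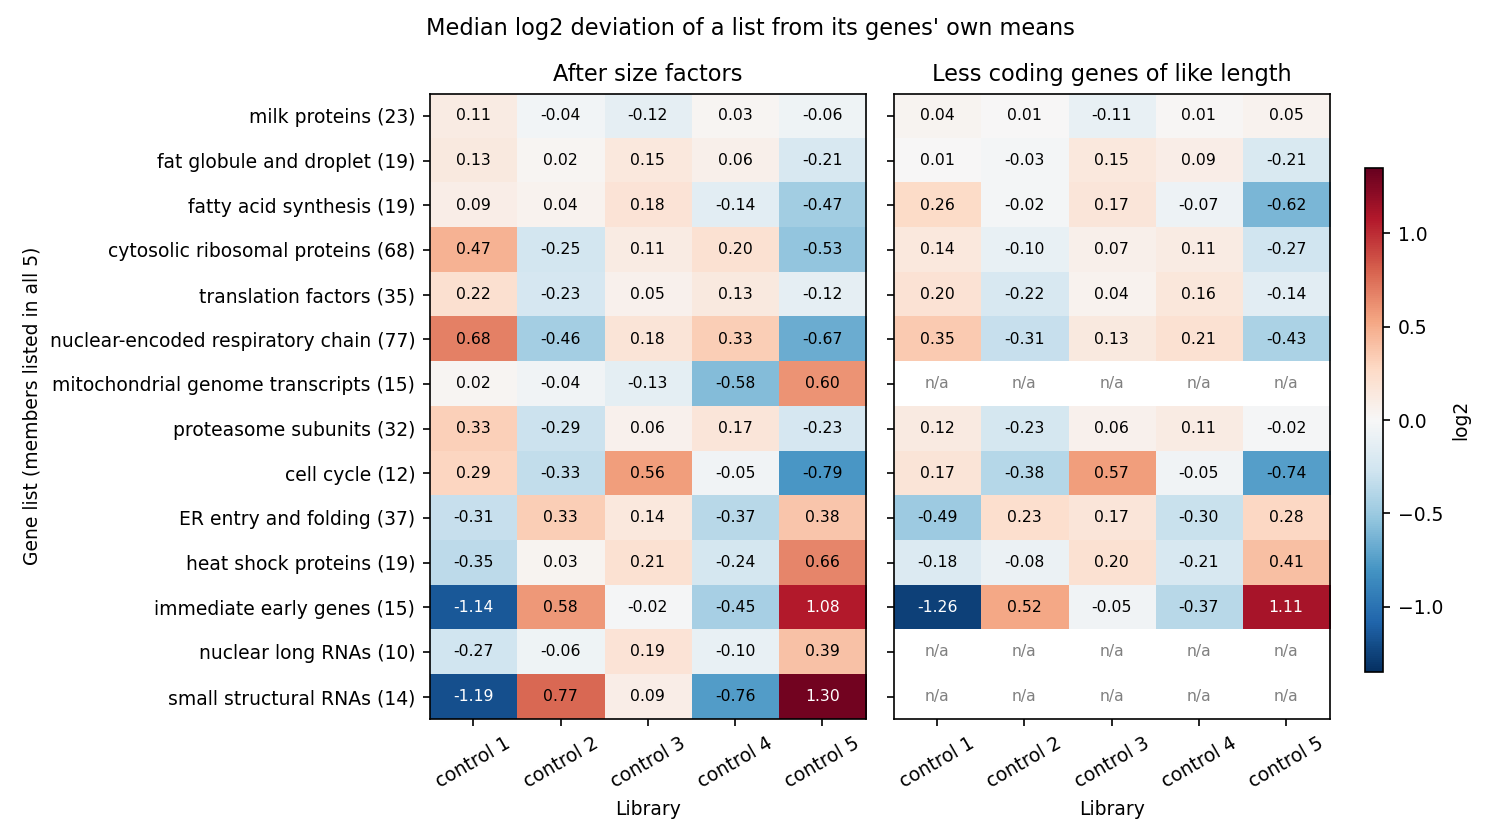
Median log2 deviation of each gene list from its genes' own means (colour and printed value) in each control diet library, after size factors on the left and relative to coding genes of like exon length on the right, where lists of RNAs that are not nuclear coding are left blank. Respiratory chain genes run from 0.68 in control 1 to -0.67 in control 5, immediate early genes from -1.14 to 1.08, and milk proteins lie between -0.12 and 0.11.

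Single genes with the widest and narrowest spread were named among those with a mean of at least 10 FPKM. Chd9, a chromatin remodeller, had 2.45, 2504, 5.19, 80.3 and 60.3 FPKM, with an SD of 3.93 on the log2 scale. Its mean of 530 FPKM came from control 2, and without that library it was 37.1 FPKM. Gsta3, a glutathione transferase, had 14.1, 1.72, 4.99, 29.3 and 2.28 FPKM, high in control 4 and control 1. The small nucleolar RNA Snora74a had 14.6, 70.5, 38.7, 5.35 and 332 FPKM, and Scarna10, a guide RNA of the Cajal body, had 20.2, 67.1, 85.7, 19.9 and 216 FPKM. Timm10b of the mitochondrial import machinery had 39.5, 3.13, 28.2, 50.2 and 10.3 FPKM. At the narrow end, Dst, a cytoskeletal linker, had 28.0, 18.4, 22.1, 20.7 and 20.8 FPKM, with an SD of 0.22. Eif3a, an initiation factor, had 12.3, 10.1, 12.6, 12.4 and 16.1 FPKM, and Vdr, the vitamin D receptor, had 9.20, 13.3, 14.5, 10.7 and 13.6 FPKM. Dst was lowest in control 2, Eif3a in control 2 too, and Vdr in control 1. These values are as deposited. Vdr had an SD of 0.68 after scaling, so a narrow spread as deposited need not hold once the libraries are scaled.

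Cell cycle genes were scarce. Of 37, 33 were listed in some library and 12 in all 5, and Ccnb1, Cenpe, Cenpf and Kif23 were unlisted. Cdk1, the mitotic kinase, was the most abundant, with 13.6, 1.66, 9.52, 8.92 and 2.26 FPKM. Pcna, the sliding clamp of replication, had 7.32, 1.99, 6.39, 5.86 and 3.75 FPKM, again lowest in control 2. The group held 0.0490% ± 0.0205 of protein-coding FPKM (SD, n = 5).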

How the data were processed

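Total RNA libraries of milk fat from 5 control diet dams were analysed, and the members and lists were chosen with earlier results of these data known. Per the file headers, the authors deposited FPKM per gene with lower and upper bounds, in 1 table per library. Tools named in the submitters' processing notes are Cufflinks, TopHat, Bowtie2, Trimmomatic, FastQC, HTSeq and DESeq2. Neither their versions, nor a strand setting, nor a genome build is stated there. Total fragments cannot be read from FPKM. The 12 value columns of the high fat diet tables were not used.

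Every listed FPKM was above 1. Repeated identifiers, 4 to 7 per library, were summed, and 1 blank row each in control 3 and control 4 and 26 stray text cells in control 2 were dropped. Of 10759 identifiers, 10733 were found in GENCODE M21, 8917 with the same start and end, so positions are read as GRCm38. The 14 genes whose symbols had been turned into dates were not named. Classes are groups of GENCODE biotypes. Mitochondrial genes were set apart by symbol. Identifiers not found, Rn7sk among them, form a class together with immunoglobulin genes.

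Unlisted genes were set to 0 in sums, and spread was computed over genes listed in all 5 libraries. Bounds were taken to lie 2 standard deviations from FPKM, and the squared ratio of FPKM to that standard deviation stands for the fragments behind a gene. With 1 group there is no test, and means ± SD are over 5 dams. Genes were named by rule: the 30 most abundant genes, the 20 most abundant coding genes, 5 of each class, 4 of each of 31 lists with the unlisted members, the 10 widest and 10 narrowest SDs at a mean of at least 10 FPKM, and up to 5 genes per library listed there alone. Other list members and the pseudogene pairs were chosen after their values were seen. Alternatives were other listing limits, scalings and denominators and leaving out each library. Scripts were tested on simulated tables, with Python 3.11.15, pandas 2.3.3, numpy 2.4.6 and scipy 1.17.1.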

Additional observations from a re-analysis of the deposited data

Results flagged for a closer look

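In 156 values examined over the 5 libraries, 8 had 1 library far from the other 4, by a gap over 0.71 of the whole range, Dixon's limit for 5 samples. Chance flags about 1 in 20 such groups, which is about the share seen here. Chd9, Snora74a and Pnrc2 were examined because their SDs are among the largest, and Gm37416 ranks high among long non-coding genes only through control 2, so a flag on these is a description. Of the 8, 5 were in control 2, 2 in control 5 and 1 in control 1.

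Control 2 was low for Wap, at 7636 FPKM where the others had 14166 to 15465, and for the number of genes listed, 7098 where the others had 8487 to 8903. After size factors, Wap in control 2 was at 12759, within the range of the others, 11096.5 to 17608. Control 2 was high for 3 genes. Chd9 was at 2504 FPKM where the others had 2.45 to 80.3, the predicted long non-coding gene Gm37416 was at 1109 FPKM where they had 6.66 to 22.6, and Gm15662 was at 40.2 FPKM where they had 8.41 to 15.6. Control 5 was high for Snora74a, at 332 FPKM where the others had 5.35 to 70.5, and for Tagln, a smooth muscle protein, at 4.52 FPKM where they had 3.20 to 3.56. Control 1 was high for Pnrc2, a nuclear receptor coactivator, at 62.8 FPKM where the others had 3.78 to 16.3. The bounds of Pnrc2 in control 1 ran from 0 to 134 FPKM and overlapped those of every other library, and those of Tagln in control 5 overlapped the others too. The lower bound of Gm15662 was 0 in all 5 libraries. Without the library that stood apart, the mean was 37.1 FPKM for Chd9, 13.96 for Gm37416, 32.3 for Snora74a and 9.24 for Pnrc2.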

How the results depend on the processing

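No value is a test, so no call could change. With 5 libraries, leaving out 1 cannot move a mean by its SD, so that measure says nothing about stability. Measured as a ratio, leaving out the highest library lowered the mean by over 1.5 times for Chd9 to 37.1 FPKM, Gm37416 to 13.96, Gsta3 to 5.77, Malat1 to 524, Pnrc2 to 9.24, Scarna10 to 48.2 and Snora74a to 32.3 FPKM. Counting genes at 10 FPKM or more gave 1691.2 genes per library and 822 in all 5, and at that mean 1608 of 1674 genes had bounds that did not overlap, against 4556 of 6055. The share of the 10 most abundant genes, 91.9% of all FPKM, was 45.4% over nuclear coding genes, 46.6% without loci under 300 bases and, chosen after seeing the data, 42.45% over coding genes without those at satellite positions. Without loci under 300 bases the class means were 52.2% for nuclear coding genes, 23.4% for the mitochondrial genome, 12.7% for pseudogenes, 4.99% for unmatched or immunoglobulin genes, 2.98% for long non-coding genes and 0 for genes annotated as miRNA. The unmatched or immunoglobulin class was led by the structural RNA Rn7sk, with a mean of 11748 FPKM, followed by Rpl31-ps12 at 53.5 FPKM. Of all FPKM, milk proteins held 1.21%, ribosomal proteins 0.120% and the respiratory chain 0.101%. Over nuclear coding FPKM these were 33.2%, 3.29% and 2.73%, and without genes at satellite positions 38.5%, 3.89% and 3.25%. Other scalings and the length adjustment moved 68 of 385 list medians by more than their SD. No paired analysis was possible because there is 1 group. Few fragments limit values near 1 FPKM, most of all in control 2.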
